A study of Pinus pinaster with 21 samples.

Results

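The 108 most abundant small RNAs listed by each of a fixed set of 17 of the 21 libraries of maritime pine (Pinus pinaster) roots were examined. They were chosen by level: a small RNA was a member when it had a count above 0 in each of 17 libraries and a median of at least 600 CPM over these libraries (CPM is the usual count level scaled to a common total, here each count over the total of its own library with no other scaling). Of the 32711 small RNA identifiers in the deposited table, 108 (0.330%) met both conditions. They are 26.0% of the 416 identifiers that all 17 libraries list. Levels and listing chose the members, so their number, level and share of the library are given as descriptions, without a test.

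The question of the study is which small RNAs of the root change after ammonium supply, and when. Seedlings 1 month old were kept for 3 days on a nutrient solution that held no nitrogen, in all groups. They were then given 80 mL of either water, 0.1 mM ammonium chloride (NH4Cl) or 3 mM NH4Cl. Roots were collected at 0 h, before this irrigation, and at 2 h and 24 h, with 10 seedlings pooled for each sample, and the experiment was run independently 3 times. The 17 libraries comprise 1 at 0 h (experiment 2), 3 each for water, 0.1 mM and 3 mM ammonium at 2 h, 3 for water at 24 h, 2 for 0.1 mM ammonium at 24 h (experiments 2 and 3) and 2 for 3 mM ammonium at 24 h (experiments 1 and 3). Experiment 1 contributed 5 of them, and experiments 2 and 3 contributed 6 each. The 4 libraries outside the rule are those at 0 h from experiments 1 and 3, 0.1 mM ammonium at 24 h from experiment 1 and 3 mM ammonium at 24 h from experiment 2.

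In plants, microRNAs are cut from hairpin precursors by Dicer-like enzymes and are loaded into Argonaute proteins, where they guide the cleavage or the silencing of matching transcripts. Small interfering RNAs, cut from long double-stranded RNA, enter the same proteins and also direct DNA methylation. Several conserved plant microRNA families are known to respond to nutrient supply in roots, among them nitrogen, phosphate, sulfate and copper. The identifiers of the table are serial labels from MIR_0 upwards, paired with no family name, sequence or genome position in the files used here, so the members are described by their labels and their counts, and no role is given to any of them.

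Library totals ran from 5947601 to 9603954 counts in the 17 libraries, and each library listed between 3872 and 5408 identifiers. The lowest count above 0 in the table was 5 and 86.6% of its cells were 0, so a 0 is read as not listed. The members stood far above this limit. The median count of a member in a library was 11805.5 and the lowest was 119, and 106 of the 108 had at least 1000 counts in each of the 17 libraries. Counting error was therefore small beside the differences between libraries, and the spread between libraries limits what the comparisons can show. Roots are mixed tissue, and in such bulk samples fewer cells of a type and less RNA per cell cannot be told apart.

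Together the members took 48.0% to 57.0% of a library's counts, with a median of 51.1%, although they were only 2.00% to 2.79% of the identifiers it listed. The counts were concentrated further at the top. The most abundant member alone took 9.48% to 14.8% (median 12.8%), the first 2 took 14.8% to 22.3%, and the first 10 took 29.3% to 37.3%. The remaining 98 members shared 16.0% to 20.7% of a library. By level, 1 member had a median of at least 100000 CPM, 6 had 10000 to 100000 CPM, 9 had 5000 to 10000 CPM, 27 had 2000 to 5000 CPM, 31 had 1000 to 2000 CPM and 34 had 600 to 1000 CPM.

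**Figure D1:**
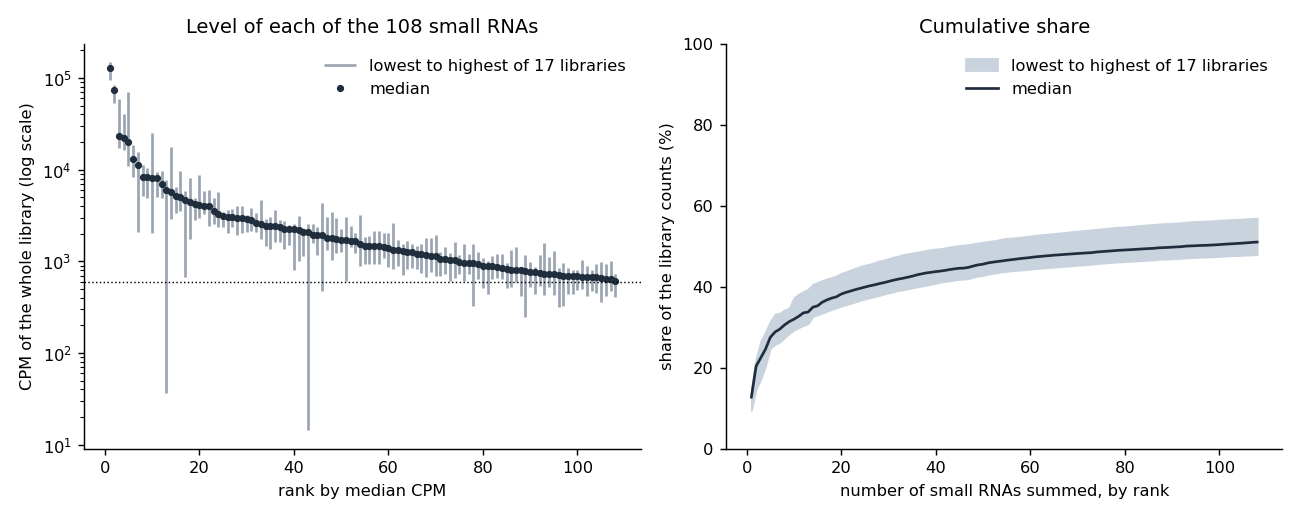
The left panel plots the median CPM of each of the 108 members on a log axis against its rank, with a bar from the lowest to the highest of 17 libraries and a dotted line at 600 CPM; the right panel plots the share of the library counts (%) summed from the top rank down. The steep start of the right curve shows the first 10 members holding 29.3% to 37.3% of a library, and 2 bars on the left reach below 100 CPM.

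The threshold cut through a continuous range of levels. The 3 members just inside it were MIR_1092 with a median of 645.8 CPM, MIR_851 with 641.6 CPM and MIR_849 with 606.3 CPM. The 3 identifiers just outside, also listed by all 17, were MIR_1096 with 593.0 CPM, MIR_4769 with 583.5 CPM and MIR_4772 with 583.0 CPM. The listing condition removed more than the threshold did near its edge. A further 103 identifiers reached a median of 600 CPM but stood at 0 in at least 1 of the 17 libraries, 16 of them in exactly 1 and 24 in exactly 2, and together they held 14.7% to 22.9% of the counts. The most abundant of these were MIR_4108 (median 12741 CPM, at 0 in 4 libraries), MIR_10 (11857 CPM, at 0 only in water at 2 h of experiment 1), MIR_36 (7479 CPM, at 0 in 2), MIR_88 (6916 CPM, at 0 in 1) and MIR_4572 (6444 CPM, at 0 in 2). The set is thus not the full list of abundant small RNAs in these roots, and a small RNA that fell to 0 in any treatment could not have entered it.

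The first place did not change across the 17 libraries, and the second changed in 1 of them. MIR_828 was the most abundant identifier in all 17 libraries. It had 135450 CPM at 0 h. At 2 h it had 138340, 131137 and 141432 CPM in experiments 1, 2 and 3 after water, 104764, 139275 and 148113 CPM after 0.1 mM ammonium and 106281, 144082 and 119597 CPM after 3 mM ammonium. At 24 h it had 108332, 129758 and 117842 CPM after water, 127566 and 125815 CPM in experiments 2 and 3 after 0.1 mM, and 94802 and 101434 CPM in experiments 1 and 3 after 3 mM. The 3 mM libraries at 24 h were the lowest pair of all groups and did not overlap the water libraries of that time, whereas the 3 groups at 2 h overlapped.

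MIR_352 was second in 16 of the 17 libraries. It had 77257 CPM at 0 h. At 2 h it had 68084, 78418 and 81685 CPM after water, 61262, 76052 and 73945 CPM after 0.1 mM and 61482, 76437 and 69038 CPM after 3 mM ammonium, in experiments 1, 2 and 3. At 24 h it had 66803, 74440 and 78262 CPM after water, 78064 and 74174 CPM after 0.1 mM and 52915 and 83587 CPM after 3 mM ammonium. Its lowest 5 values were the 5 libraries of experiment 1, whatever the treatment. The library in which it came lower was 3 mM ammonium at 24 h of experiment 1, where MIR_183 was second with 71066 CPM.

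The next place changed hands. MIR_6 (median 23154 CPM) held it in 7 libraries and MIR_57 (median 22161 CPM) in 6, and in the other 4 it fell once each to MIR_183, MIR_352, MIR_4206 and MIR_13691, of which MIR_4206 and MIR_13691 are not members. The rest of the first 10 were MIR_183 with a median of 20143 CPM, MIR_353 with 12950 CPM, MIR_30 with 11297 CPM, MIR_62 with 8347 CPM, MIR_33 with 8239 CPM and MIR_86 with 8090 CPM. Ranked within single libraries, 5 to 9 of the top 10 identifiers and 40 to 61 of the top 108 were members. The lowest of those counts of the top 108, 40, was again in 3 mM ammonium at 24 h of experiment 1.

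**Figure D2:**
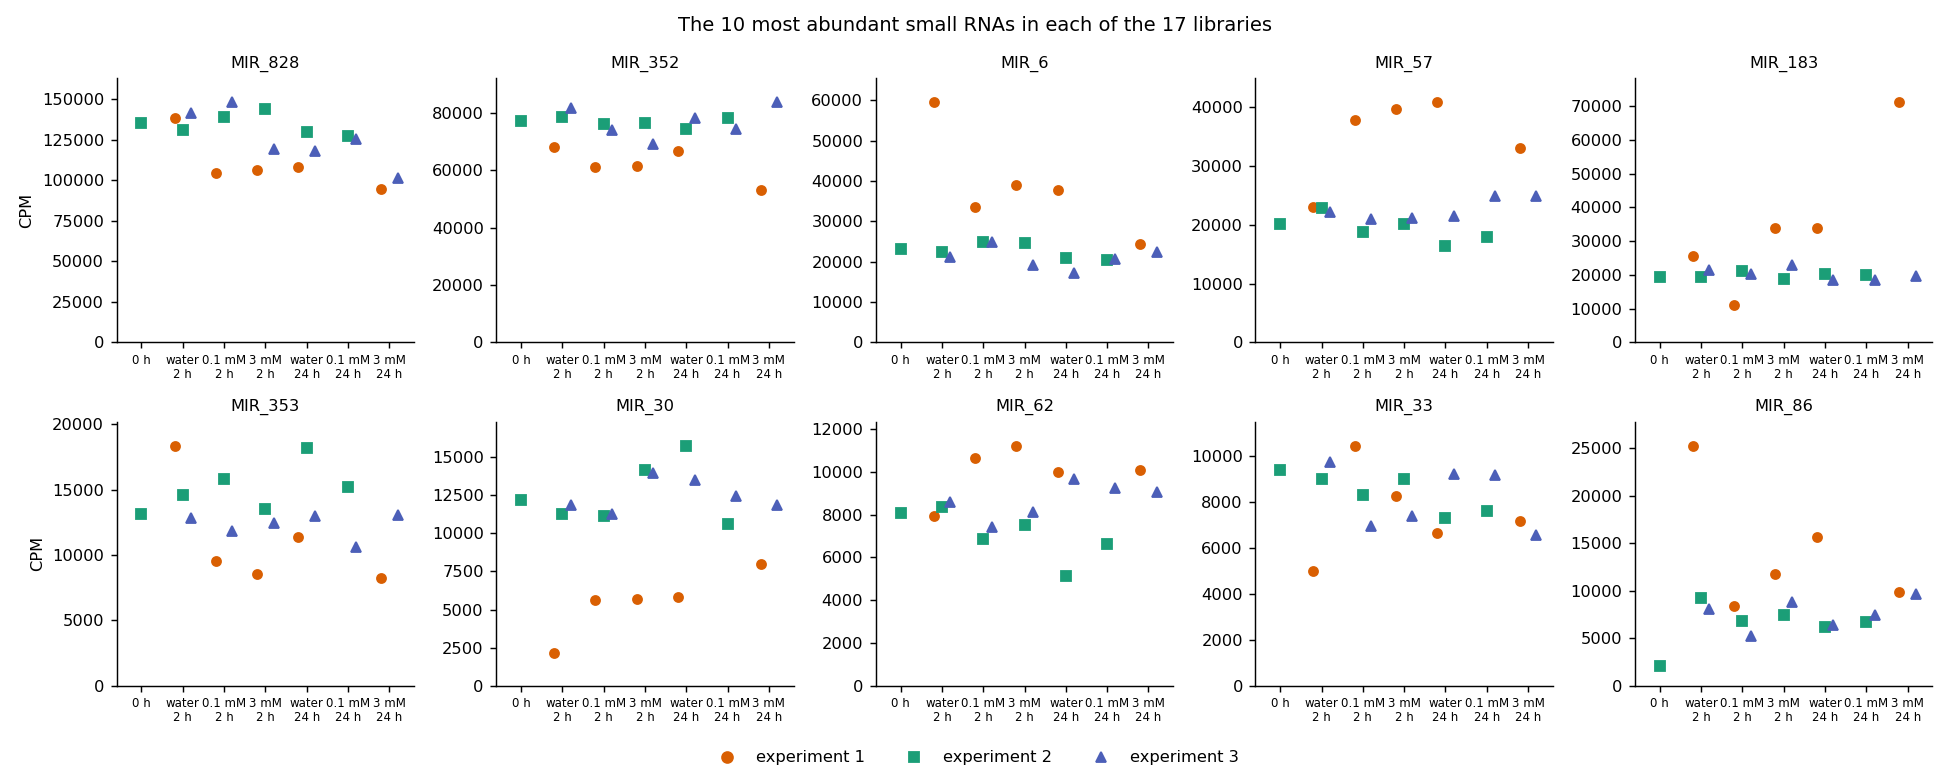
Each panel plots the CPM of 1 of the 10 most abundant members in each of the 17 libraries, by treatment and time, with colour and shape for the experiment. The circles of experiment 1 lie apart from the other 2 experiments for MIR_352, MIR_57 and MIR_30 in most treatments, and MIR_183 has a single high circle in 3 mM ammonium at 24 h.

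The share of the library held by all members together was 51.8% at 0 h. At 2 h it was 57.0%, 52.7% and 53.4% after water, 48.0%, 53.6% and 53.1% after 0.1 mM and 50.8%, 52.2% and 48.9% after 3 mM ammonium, in experiments 1, 2 and 3. At 24 h it was 52.3%, 51.1% and 50.7% after water, 50.6% and 50.5% after 0.1 mM and 48.0% and 49.4% after 3 mM ammonium. Both ammonium groups lay below the water libraries at 24 h, the nearest values being 50.6% for 0.1 mM ammonium and 50.7% for water, and 3 mM lay below all 3 water libraries at 2 h as well. By experiment, the share ran from 48.0% to 57.0% in experiment 1, from 50.6% to 53.6% in experiment 2 and from 48.9% to 53.4% in experiment 3, so experiment 1 spanned the whole range.

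Most members kept their level within a factor of a few over the 17 libraries. The ratio of the highest to the lowest CPM had a median of 2.10 and was under 2 for 45 members, from 2 to under 4 for 51 and at least 4 for 12. The standard deviation (SD) of log2 CPM over the 17 libraries had a median of 0.30, close to 0.29 over the 308 other identifiers listed by all 17, so the abundant members were about as variable as the rarer ones. For members, the median SD was 0.31 within treatment and time groups and 0.22 within experiments. On CPM with no other scaling, libraries of the same treatment thus differed as much as libraries in general, and libraries of the same experiment differed less.

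The steadiest members were MIR_835 (SD 0.14 on the log2 scale, 2372 to 3468 CPM), MIR_1071 (0.16, 1246 to 2039 CPM), MIR_1068 (0.17, 2102 to 3213 CPM), MIR_846 (0.17, 735 to 1176 CPM) and MIR_352 (0.17). The lowest value of each of these 5 was in 3 mM ammonium at 24 h of experiment 1. That library held the lowest value of 48 of the 108 members and of 147 of the 308 other shared identifiers, and its TMM factor, 0.723, was the lowest of the 17. TMM factors are edgeR's estimate of how far a library's composition shifts its CPM values, so a low factor goes with low CPM across many identifiers.

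Among the 5 members with the widest spread, 2 owed it to 1 library each. MIR_4743 had 36.5 CPM in 3 mM ammonium at 2 h of experiment 1, from 282 counts with an exact Poisson 95% interval of 250 to 317 counts, against 4193 to 7620 CPM in the other 16 libraries. MIR_839 had 14.3 CPM in 0.1 mM ammonium at 24 h of experiment 3, from 119 counts with an interval of 98.6 to 142 counts, against 1104 to 2550 CPM in the others. These intervals cover counting error only, and the cause of the 2 low values was not tested.

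MIR_208 stood low in 3 libraries of different treatments, with 672 CPM in 3 mM ammonium at 2 h of experiment 3, 932 CPM in 3 mM ammonium at 24 h of experiment 1 and 974 CPM in water at 24 h of experiment 3, against 3065 to 5807 CPM in the other 14. The last 2 of the 5, MIR_4106 and MIR_94, followed the experiment and are described with it.

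**Figure D3:**
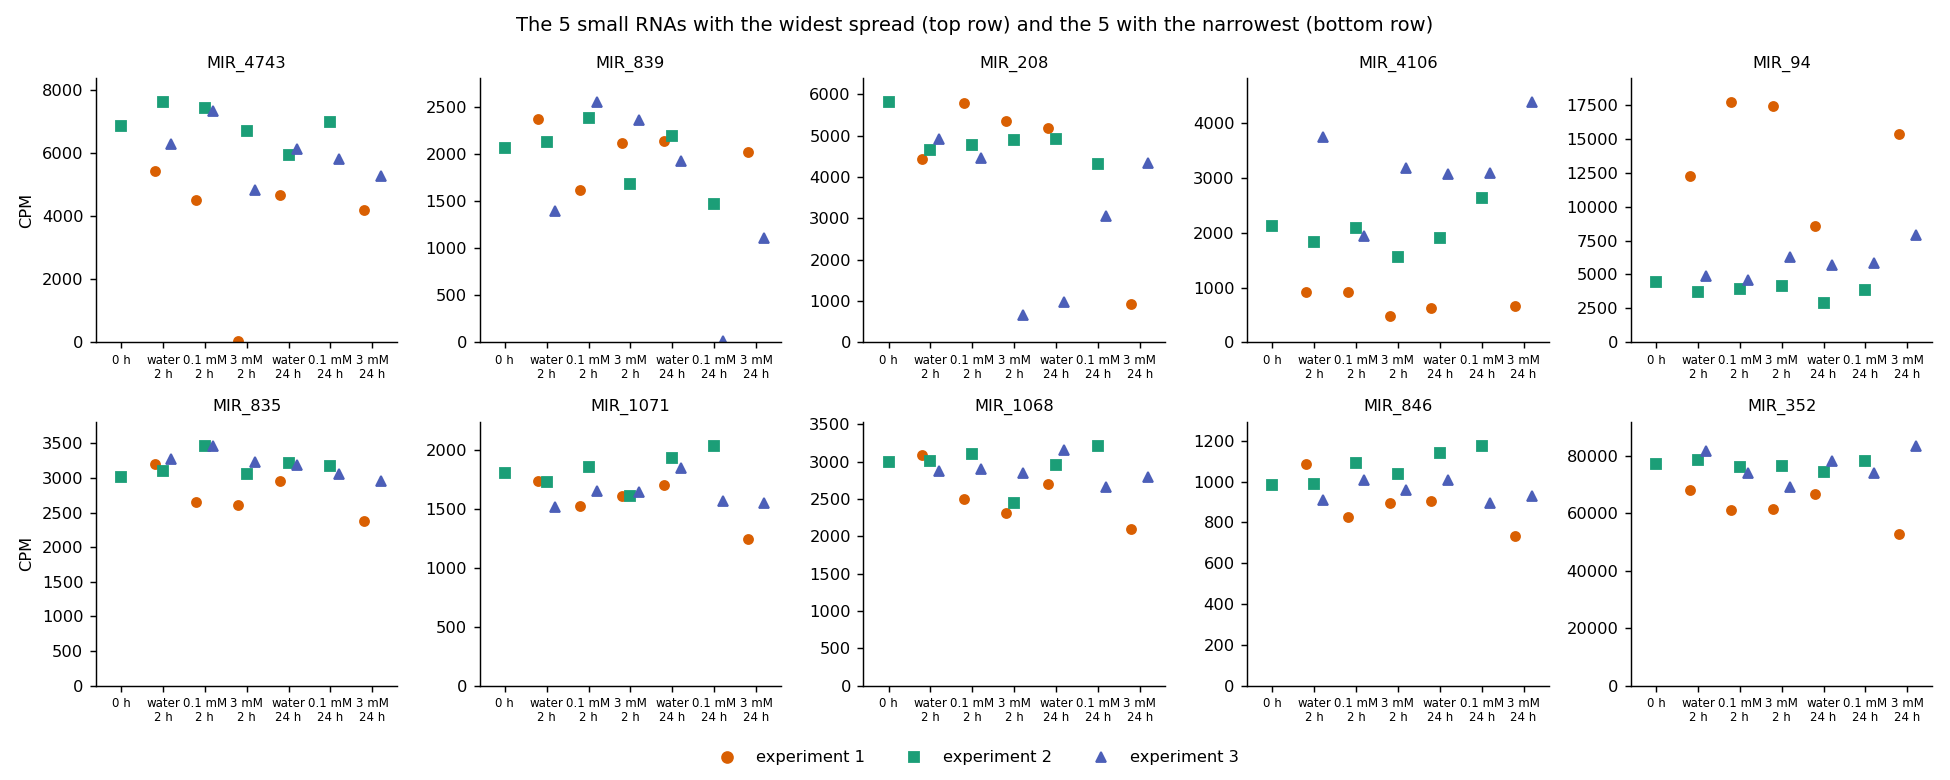
Each panel plots the CPM of 1 member in each of the 17 libraries, by treatment and time, with colour and shape for the experiment; the top row holds the 5 members with the largest SD of log2 CPM and the bottom row the 5 with the smallest. Single points near 0 mark MIR_4743 in 3 mM ammonium at 2 h of experiment 1 and MIR_839 in 0.1 mM ammonium at 24 h of experiment 3, and the experiments separate for MIR_4106 and MIR_94.

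In the fit on the whole table, a difference by treatment or time was called for almost none of the members. The test was edgeR's quasi-likelihood test on the counts of all 20258 identifiers that passed the count filter, with Benjamini-Hochberg adjusted p-values and a threshold of 0.05. For any difference among the 7 groups, 1 of the 108 members passed (0.926%), against 3.22% of all identifiers tested. For 3 mM ammonium against water, no member passed at 2 h, against 0.582% of all, and 1 passed at 24 h, against 0.543% of all. For 0.1 mM ammonium against water, no member passed at 2 h, against 0.587% of all, or at 24 h, against 0.513% of all. No member passed for both doses and times pooled against water (0.533% of all), for 24 h against 2 h over the treatments (0.420% of all) or for the interaction of ammonium with time (0.355% of all). At an unadjusted p under 0.05, 0 to 2 members passed in each of these 7 contrasts, against 467 to 839 of the 20258 identifiers, and 3 passed for any group difference, against 1350. DESeq2 and limma-voom on the same table called no member in any of these comparisons. The shares of all identifiers are no close standard for the members, because most tested identifiers are unlisted in many libraries and no member is. For the same reason the spread that this fit used for the members was wide. Its median biological coefficient of variation was 2.20, against 0.247 in the second fit below. The lack of calls in this fit therefore says little about the members.

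The member that passed was MIR_183. At 24 h it had 71066 and 19692 CPM in experiments 1 and 3 after 3 mM ammonium, against 33762, 20143 and 18559 CPM in experiments 1, 2 and 3 after water. The single high value is the 3 mM library of experiment 1, and the groups overlap. The fitted log2 fold change was 1.33 ± 0.32 (SE) with an edgeR adjusted p of 0.00776, and the adjusted p for any difference among the 7 groups was 1.59e-06. With the experiment as a block, the log2 fold change was 1.06 with an adjusted p of 1, and no member passed for any group difference. Without the 3 mM library of experiment 1, the log2 fold change reversed to -0.23 (adjusted p = 1), and without that of experiment 3 it was 2.06 (adjusted p = 3.19e-06). The call was also lost without the water library at 24 h of experiment 2 or 3 (adjusted p = 0.179 and 0.195) and without the 0 h library (adjusted p = 0.553). Without the 3 mM library at 24 h of experiment 3, MIR_183 passed for 24 h against 2 h (log2 fold change 0.71, adjusted p = 0.0234). The number of members passing for any group difference was 0 without the 3 mM library at 24 h of experiment 1 or without the 0 h library, and 2 without 0.1 mM ammonium at 2 h of experiment 1.

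A second fit took only the 416 identifiers listed by all 17 libraries, where no count is 0 and where the spread is estimated from identifiers like the members. In edgeR no member passed for any of the 8 group and treatment comparisons. The same was found for all 416, with 0 passing in 7 of the 8, the exception being 24 h against 2 h with 0.240% of the 416, an identifier that is no member. At an unadjusted p under 0.05, 1 to 6 of the 108 members and 7 to 27 of the 416 passed in each comparison. With limma-voom on the same 416 no member passed, and with DESeq2 1 member each (0.926%) passed for any group difference, against 1.92% of the 416, for 3 mM ammonium against water at 2 h, against 0.481%, for pooled ammonium against water, against 0.240%, and for 24 h against 2 h, against 1.20%. When each library was left out in turn, edgeR on the 416 called MIR_71 in 1 case, given below, and MIR_839 in another. Without 0.1 mM ammonium at 24 h of experiment 2, the low value of MIR_839 in experiment 3 was the only library of its group, taken to vary like the other groups, and MIR_839 passed for any group difference (adjusted p = 0.00516) and for 4 of the 7 contrasts, among them 0.1 mM ammonium against water at 24 h (log2 fold change -7.12, adjusted p = 6.30e-05).

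The members behind the DESeq2 calls were MIR_1092 and MIR_71. MIR_1092 had 431, 567 and 623 CPM in experiments 1, 2 and 3 after 3 mM ammonium at 2 h, against 929, 753 and 830 CPM after water. At 24 h it had 420 and 644 CPM after 3 mM ammonium, against 684, 890 and 744 CPM after water. After 0.1 mM ammonium it had 627, 731 and 646 CPM at 2 h and 558 and 597 CPM at 24 h. On plain CPM, each ammonium group lay below the water libraries of its time without overlap. With the TMM factors of the fit on the whole table, 0.1 mM ammonium overlaps water at 2 h. The factor was 0.827 for 0.1 mM ammonium at 2 h of experiment 1 and 1.06 for water at 2 h of experiment 2. The pooled log2 fold change was -0.36 ± 0.08 (SE; 95% interval -0.53 to -0.18), with an adjusted p of 0.254 in edgeR and 0.00488 in DESeq2. Its median level, 645.8 CPM, is among the 3 lowest of all members.

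At 24 h MIR_71 had 2220, 2247 and 2954 CPM after water, 2434 and 2306 CPM after 0.1 mM and 1506 and 3023 CPM after 3 mM ammonium, against 1328 to 2121 CPM over the 9 libraries at 2 h. On plain CPM, 6 of the 7 libraries at 24 h lay above all 9 at 2 h. The exception was 3 mM ammonium of experiment 1. With the TMM factors of the fit on the whole table, this separation is not kept. The factor was 0.838 for 3 mM ammonium at 2 h of experiment 1 and 1.16 for water at 24 h of experiment 2. The log2 difference of 24 h minus 2 h was 0.50 ± 0.13 (SE; 95% interval 0.23 to 0.77), with an adjusted p of 0.169 in edgeR and 0.00803 in DESeq2. In edgeR it passed without the 3 mM library at 2 h of experiment 1 (log2 difference 0.58, adjusted p = 0.0411).

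For most members the intervals bound how large a treatment difference could be, though for a smaller share of them than of all 416. In the fit on the 416 identifiers, the whole 95% interval of the log2 fold change lay within 1 log2 unit either way for 75.9% of the 108 members, against 87.0% of all 416, for 3 mM ammonium against water at 2 h, and for 81 members, against 83.4% of all, at 24 h. For 0.1 mM ammonium against water it did so for 78.7% of the members, against 89.2% of all, at 2 h and for 75.9%, against 84.9%, at 24 h. The shares were 91.7% of the members and 96.4% of all for pooled ammonium against water, 94.4% and 97.4% for 24 h against 2 h, and 70.4% and 77.6% for the interaction of ammonium with time. With the experiment as a block, they ran from 85.2% to 97.2% of the members and from 86.1% to 98.3% of all over these 7 contrasts. MIR_828, for example, had a log2 fold change of -0.01 (95% interval -0.31 to 0.28) for 3 mM ammonium against water at 2 h and 0.05 (-0.28 to 0.38) at 24 h. Its lower plain CPM after 3 mM ammonium at 24 h was thus not seen once TMM factors were applied. MIR_352 had 0.00 (-0.29 to 0.29) at 2 h and 0.18 (-0.15 to 0.50) at 24 h. A difference smaller than these intervals could not be seen with 2 or 3 libraries a group.

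On plain CPM, the experiment separated the members more than the treatment did. Taken alone, the 3 experiments accounted for a median of 55.1% of the sum of squares of a member's log2 CPM with 2 of the 16 degrees of freedom, and the 7 groups for 30.7% with 6. Over the 308 other shared identifiers these medians were 31.1% and 34.4%. The experiment took the larger share for 70 of the 108 members (64.8%), against 150 of the 308 others (48.7%). These shares are descriptions of the same 17 libraries, and plain CPM also carries the composition of each library.

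Experiment 1 was the one that stood apart. On plain CPM, all 5 libraries of experiment 1 lay below all 12 of experiments 2 and 3 for 20 members, against 10.6% of the 416 shared identifiers, and all 5 lay above for 6 members, against 1.92% of the 416. The mean of experiment 1 was the lowest of the 3 for 72.2% of the members and for 76.0% of the 308 other shared identifiers. By this mean the low side was not more frequent among members, whereas by the count of libraries all below it was. The mean of experiment 1 was the highest for 19.4% of the members and 9.09% of the others. Plain CPM also carries the composition of the library: with library totals in place of TMM factors, the median log2 difference of experiment 1 from the mean of experiments 2 and 3 over all 416 was -0.26, and the counts on plain CPM are relative to that shared shift.

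With TMM factors and the treatment group as a term, in the fit on the 416, edgeR called a difference among the 3 experiments for 34 of the 108 members (31.5%), against 20.7% of all 416, and 46 members, against 146 of the 416, had an unadjusted p under 0.05. Without 3 mM ammonium at 2 h of experiment 1 the count was 21. For experiment 1 minus the mean of experiments 2 and 3 it called 37 members (34.3%), against 25.2% of all 416. Of these, 18 were higher in experiment 1, against 12.3% of the 416 called higher, and 19 were lower, against 13.0% called lower. With library totals 17 of the 108 members were called higher, against 21 of the 416 (5.05%). In the same fit 49 were called lower, against 161 of the 416 (38.7%). Experiment 2 differed from the mean of the other 2 for 12 of the 108 members, against 23 of the 416 (5.53%). Of the 12, 2 were higher, against 2.64% of the 416, and 10 lower, against 2.88%. Experiment 3 differed for 8 of the 108 members, against 27 of the 416 (6.49%). Of the 8, 4 were higher, against 3.12% of the 416, and 4 lower, against 3.37%. These last counts moved with single libraries: for experiment 2 between 1 (without its water library at 24 h) and 18 (without water at 2 h of experiment 1), and for experiment 3 between 3 (without its water library at 2 h or at 24 h) and 10 (without 0.1 mM ammonium at 2 h of experiment 1). In the fit on the whole table only MIR_94 (adjusted p = 0.0198) and MIR_6 (adjusted p = 0.0251) differed among the experiments, against 0.0296% of all identifiers, and leaving out any 1 library other than the one at 0 h lowered that count to 0 or 1.

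The largest of these differences was in MIR_94. It had 12244, 17671, 17428, 8536 and 15344 CPM in the 5 libraries of experiment 1 (water, 0.1 mM and 3 mM ammonium at 2 h, then water and 3 mM ammonium at 24 h), against a range of 2914 to 4421 CPM with a median of 3905 CPM in experiment 2 and 4627 to 7940 CPM with a median of 5779 CPM in experiment 3. The groups of libraries do not overlap, and experiment 3 lay above experiment 2 as well. The log2 difference of experiment 1 from the other 2 was 1.82 ± 0.15 (SE), with an edgeR adjusted p of 1.24e-05.

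MIR_6 had 59507, 33525, 39028, 37901 and 24449 CPM in experiment 1, in the same order of libraries, against 20325 to 24952 CPM (median 22846) in experiment 2 and 17137 to 24775 CPM (median 20870) in experiment 3. The value of 3 mM ammonium at 24 h overlapped the other experiments and the other 4 did not. Its log2 difference was 1.06 ± 0.11 (SE; edgeR adjusted p = 9.85e-05). MIR_57 had 23058, 37852, 39692, 40849 and 33118 CPM in experiment 1, against 16332 to 22827 CPM in experiment 2 and 21016 to 24943 CPM in experiment 3. All but its water library at 2 h lay above the other experiments, and its log2 difference was 1.01 ± 0.17 (SE; edgeR adjusted p = 0.00250).

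MIR_30 and MIR_4106 ran the other way. MIR_30 had 2110, 5603, 5680, 5838 and 7970 CPM in experiment 1, against 10619 to 15772 CPM in experiment 2 and 11297 to 13971 CPM in experiment 3. Its log2 difference was -1.05 ± 0.26 (SE; edgeR adjusted p = 0.0143). MIR_4106 had 914, 924, 475, 628 and 662 CPM in experiment 1, against 1550 to 2637 CPM in experiment 2 and 1939 to 4376 CPM in experiment 3, with a log2 difference of -1.55 ± 0.19 (SE; edgeR adjusted p = 0.000264). For both, every library of experiment 1 lay below every other library.

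The other 7 of the 10 members with the smallest p for the 3 experiments were MIR_316, MIR_119, MIR_86, MIR_850, MIR_111, MIR_108 and MIR_4594. Of these, 6 were higher in experiment 1, by log2 differences from 0.57 (MIR_850) to 1.21 (MIR_316), and MIR_4594 was lower, by -0.37 ± 0.06 (SE). MIR_316 had 6227 to 8834 CPM in experiment 1, against 2943 to 4606 CPM in experiment 2 and 3766 to 5375 CPM in experiment 3. MIR_828 and MIR_352, the most abundant pair, did not pass, with log2 differences of 0.04 (95% interval -0.14 to 0.23) and -0.04 (-0.21 to 0.13). For MIR_352 this is at odds with its plain CPM, in which all 5 libraries of experiment 1 were lowest. In the fit on the whole table, 4 of those 5 libraries have TMM factors under 1 (0.723 to 0.930), and a factor under 1 raises scaled values. The fit on the 416, which gave these differences, has its own factors, from 0.727 to 1.18 over the 17 libraries.

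**Figure D4:**
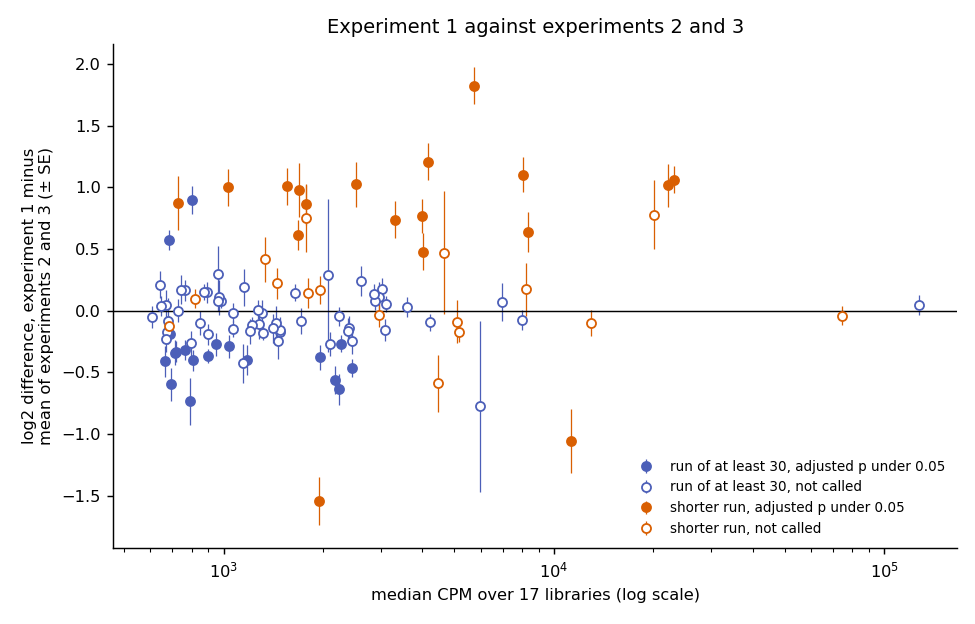
The log2 difference of experiment 1 minus the mean of experiments 2 and 3 (vertical axis, ± SE, TMM-scaled, group as a term) is plotted for each of the 108 members against its median CPM on a log axis; filled points had an edgeR adjusted p under 0.05, and colour shows whether the member's label lies in a run of at least 30 consecutive labels. The 16 filled points of shorter runs above 0 reach 1.82, while 17 of the 19 filled points of long runs lie below 0.

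The labels of the members were not scattered through the numbering. Identifiers are numbered by the first library to list them, and within a library they come in runs of consecutive labels whose counts in that library do not rise. There are 1008 such runs with a median length of 2, and what they stand for is not stated in the sources used here. All 108 members lay in 32 of them: 72 members in 4 long runs, namely 22 in MIR_828 to MIR_1066, 15 in MIR_1067 to MIR_1099, 25 in MIR_4572 to MIR_4635 and 10 in MIR_4743 to MIR_4883, and 2 more in other runs of at least 30. The remaining 34 were spread over 26 shorter runs, which hold all of the 10 most abundant members other than MIR_828.

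The calls for experiment 1 were then counted by run length. This grouping was chosen after the values were seen and is described without a test. The runs also rest on counts of experiment 1 itself. They follow its library at 0 h for 72 members and its 0.1 mM ammonium library at 2 h for 36. The second of these is among the 17, so the split is not independent of the differences it divides. Of the 74 members in long runs, 2 were called higher and 17 lower in experiment 1, and of the 34 in shorter runs 16 were called higher and 2 lower. Called or not, 26 of the 74 lay higher in experiment 1, and 9 of the 34 lay lower. Of the 308 other shared identifiers, 280 lay in long runs, with 29 called higher and 34 lower, and 28 in shorter runs, with 4 called higher and 1 lower. Members of long runs held 25.9%, 20.1%, 19.9%, 22.0% and 18.1% of the 5 libraries of experiment 1, in that order, against 25.9% to 28.2% in experiment 2 and 21.4% to 28.3% in experiment 3. Members of shorter runs held 31.1%, 27.8%, 30.9%, 30.3% and 29.9% of the libraries of experiment 1, against 24.5% to 25.8% in experiment 2 and 24.7% to 28.0% in experiment 3. The sums nearly offset each other, so the share of all members together did not show the difference between experiments.

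The 4 libraries outside the rule give the members' levels in samples that did not choose them. The library at 0 h of experiment 1, with 6982894 counts, listed 72 of the 108 members and all of the first 10. Its members held 54.3% of its counts, and 64 of the 72 lay within the range of the 17 libraries. MIR_828 had 136926 CPM and MIR_352 had 78557 CPM in it. MIR_94 had 16125 CPM and MIR_30 had 6007 CPM, each inside its range over the 5 libraries of experiment 1 given above. MIR_6, MIR_57, MIR_86, MIR_108, MIR_111 and MIR_119 also lay inside their ranges over those libraries. MIR_316 lay above its range and MIR_850 below, and MIR_4106 and MIR_4594 were not listed. The numbering of the labels starts with this library, and the 36 members it does not list first appear in 0.1 mM ammonium at 2 h of experiment 1.

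The other 3 libraries listed fewer members. The library at 0 h of experiment 3 (3332237 counts) listed 36, 0.1 mM ammonium at 24 h of experiment 1 (3086103 counts) listed 19 and 3 mM ammonium at 24 h of experiment 2 (1180505 counts) listed 16. MIR_828 and MIR_352 were not listed in the first and the last of these, and they made up 48.1% of the counts of the second, with 317814 and 162850 CPM. The listed members mostly stood above their usual level, by a median log2 ratio to the median of the 17 libraries of 1.02, 1.28 and 2.68 in these 3 libraries, against 0.00 in the library at 0 h of experiment 1. A share of a library rises for each listed identifier when others are missing from the total. Whether this accounts for the higher levels was not tested.

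Some members were listed in these libraries at counts far under their usual level. MIR_830 had 52 counts at 0 h of experiment 3, MIR_840 had 33 counts and MIR_850 had 91 counts in 0.1 mM ammonium at 24 h of experiment 1, and MIR_57 had 140 counts, MIR_353 had 387 counts, MIR_835 had 145 counts and MIR_1079 had 45 counts in 3 mM ammonium at 24 h of experiment 2. Each lay more than 8-fold below its median CPM of the 17 libraries. Listing by the 4 libraries together was uneven: 20 members were listed by none of them, 48 by 1, 27 by 2, 11 by 3 and 2 (MIR_210 and MIR_315) by all 4.

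**Figure D5:**
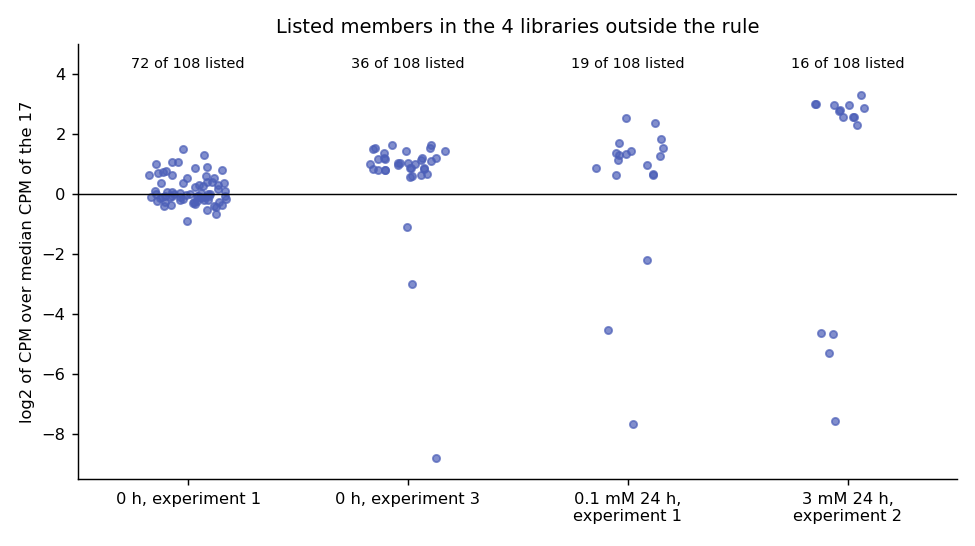
Each point is a member listed in 1 of the 4 libraries outside the rule, at the log2 ratio of its CPM there to its median CPM over the 17 libraries (vertical axis). Points of the library at 0 h of experiment 1 centre on 0 with 72 of 108 listed, the other 3 libraries list 36, 19 and 16 members, mostly above 0, and single members lie far below.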

How the data were processed

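Small RNA of pine roots was sequenced from inserts of 18 to 30 bp as 50 bp reads, per the labels' protocols. The authors deposited a table of raw counts per identifier and sample. The submitters' processing notes name bcl2fastq and edgeR, and no aligner, microRNA caller or genome build is given in the sources used here. A replicate is an independent experiment, per the labels. The columns of 0.1 mM ammonium at 24 h of experiments 2 and 3 differ from those samples' descriptions in the last digit and were matched through the titles, so this group rests on that match.

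From the counts, CPM were computed with Python 3.11.15. Counts were tested with the quasi-likelihood test of edgeR 4.0.16 (R 4.3.3) with TMM factors, on the 20258 identifiers kept by filterByExpr (minimum count 10, minimum total 15), with all 7 groups in the fit, p-values adjusted over all identifiers tested and a threshold of 0.05. In this fit most identifiers have counts of 0, the spread is taken from the trend with abundance, and the median biological coefficient of variation used for the members is 2.20. The fit on the 416 identifiers listed by all 17 libraries was added after the data were seen, and there it is 0.247. DESeq2 1.42.0 and limma-voom (limma 3.58.1) were alternatives, with library totals, RLE factors, another count filter, each library left out, all 21 libraries and the experiment as a block. The scripts were tested on simulated data. Same-numbered experiments pair the samples, per the labels: deviations from group means correlated with a mean r of 0.254 over 35 pairs of libraries of the same experiment and -0.122 over 71 pairs of different ones. Such deviations cancel out within a group, so the negative value follows in part from the positive one.

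The members and lists were chosen with earlier results of these data known. Members named are the 10 most abundant, the 5 widest and 5 steadiest by SD of log2 CPM, those next to the threshold, those called in a test and those with the smallest p for the experiments. The members singled out in the other 4 libraries, in low values and in the runs of labels were chosen after their values were seen.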

Additional observations from a re-analysis of the deposited data

Results flagged for a closer look

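Within each experiment, the highest or lowest of its 5 or 6 libraries was set against the others by Dixon's criterion for the 37 named members, giving 111 sets. Chance marks about 1 in 20 sets that are drawn without regard to their values, and 7 were marked. That rate is no standard here, because some of these members, MIR_4743 and MIR_208 among them, were named for their wide spread. In experiment 1, MIR_4743 had 36.5 CPM in 3 mM ammonium at 2 h, against 4193 to 5457 CPM in the other 4 libraries, MIR_208 had 932 CPM in 3 mM ammonium at 24 h, against 4434 to 5784 CPM, and MIR_847 had 614 CPM in 3 mM ammonium at 24 h, against 954 to 1088 CPM. In experiment 2, MIR_1068 had 2446 CPM in 3 mM ammonium at 2 h, against 2951 to 3213 CPM in the other 5 libraries, and MIR_4748 had 1177 CPM in water at 2 h, against 1292 to 1316 CPM. In experiment 3, MIR_847 had 1534 CPM in water at 24 h, against 752 to 1042 CPM, and MIR_316 had 5375 CPM in 0.1 mM ammonium at 24 h, against 3766 to 4164 CPM.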

How the results depend on the processing

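The set held 110 members by mean CPM, 124 when 16 of 17 listings sufficed, 161 at a threshold of 300 CPM and 67 at 1200 CPM, and the median share was 55.7%, 53.7% and 48.0% under the last 3. The median SD of log2 CPM was 0.24 with TMM-scaled CPM and 0.22 with experiment means removed as a replicate block. The call of MIR_183 for any group difference was lost (0 members) with library totals, a mean CPM of at least 10, DESeq2, limma-voom, all 21 libraries, the replicate block and the 416 shared identifiers (edgeR, limma-voom and block). Its call for 3 mM ammonium against water at 24 h was lost (0 members) under the same settings, with only the compared groups fitted and with DESeq2 on the 416, and its log2 fold change was -0.23 without 3 mM ammonium at 24 h of experiment 1 and 2.06 without that of experiment 3. DESeq2 on the 416 called 1 member each for 3 mM ammonium at 2 h, pooled ammonium and 24 h against 2 h. Differences among experiments were called for 1 member with library totals, 0 with DESeq2, limma-voom or all 21 libraries, 5 with no group term, 34 on the 416, 45 there with DESeq2, 35 with limma-voom and 62 with library totals, where experiment 1 differed for 66. For experiments 2 and 3, DESeq2 on the 416 called 24 and 23 members, and library totals 28 and 10. The causes of these changes were not tested.

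Leaving out each library in turn gave 108 to 111 members, shares of 51.0% to 52.5%, SDs of 0.28 to 0.31, and 0 to 2 calls for any group, 0 to 1 for 3 mM ammonium at 24 h, 0 to 1 for 24 h against 2 h and 0 to 2 for experiments, with 0 to 0 for the other contrasts and the interaction. On the 416 it gave 0 to 1 for any group, 0.1 mM ammonium at 24 h, pooled ammonium, 24 h against 2 h and the interaction, 21 to 35 for experiments and 28 to 38 for experiment 1. The replicate block changed no other call. With 2 or 3 libraries a group, and 1 at 0 h, the spread between libraries limits these tests. The effect of depth on them was not tested.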
